A study of Mus musculus with 109 samples.

Results

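The genes described here are 10 of the unfolded protein response out of 37315 genes in a count table of mouse retinas: Hspa5, Hyou1, Pdia4, Dnajb9, Sdf2l1, Creld2, Manf, Herpud1, Derl3 and Xbp1. Their rows were taken from the table by Ensembl gene identifier. Derl3 was put on the list because its level differed between genotypes in an earlier look at these counts, so its genotype difference is described below without a test. The other 9 belong to the same response.

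Whole retinas were collected after an intravitreal injection of PBS, TNF, IL1A or IL1A together with TNF (IL1A+TNF), and polyadenylated RNA was sequenced. In batch 1 all mice were wildtype (WT, C57BL/6J). At day 2 this batch held 31 PBS retinas, 8 TNF retinas, 9 IL1A retinas and 10 IL1A+TNF retinas, at day 14 it held 7 PBS and 6 TNF retinas, and at day 35 it held 6 PBS and 9 TNF retinas. Batch 2, all at day 2, held 5 PBS and 6 IL1A+TNF retinas of WT mice, and 6 PBS and 6 IL1A+TNF retinas of Sarm1-deficient mice (Sarm1 KO). Mice were 2 to 4 months old and of both sexes. The 109 retinas came from 64 mice, 45 of which gave both eyes. Most PBS retinas were the fellow eyes of cytokine-injected eyes, so an injected mouse rather than an untouched mouse was the control.

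When unfolded proteins build up in the endoplasmic reticulum (ER), the chaperone BiP is drawn away from the sensors ATF6, IRE1 and PERK in the ER membrane. ATF6 is then cleaved into a transcription factor, IRE1 splices the Xbp1 mRNA, and both factors raise genes for chaperones and for ER-associated degradation (ERAD), which removes misfolded proteins. The response is best known from secretory cells such as plasma cells, and in the retina photoreceptors make large amounts of membrane protein that folds in the ER.

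ATF6 and XBP1 bind short promoter elements, and 4 members carried an exact match to the ER stress elements in the 250 bases before their RefSeq start (GRCm38.p6). The motifs searched on both strands were ERSE (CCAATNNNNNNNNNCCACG), ERSE-II (ATTGGNCCACG) and the core of the UPR element (TGACGTGG), and no member's promoter held more than 1 of them. Promoters of 8 members were found in the RefSeq table; Manf and Hyou1 had no entry. The sequences are shown because they are the known binding elements of these factors. Each is printed 5′ to 3′ on the strand of its gene, with the motif in capitals.
Hspa5, chr2:34772020-34772048, + strand, ERSE in the gene's orientation at -65 to -47 from the start: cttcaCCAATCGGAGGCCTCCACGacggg
Derl3, chr10:75893237-75893265, + strand, ERSE in the opposite orientation at -156 to -138: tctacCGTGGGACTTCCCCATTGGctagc
Creld2, chr15:88819515-88819543, + strand, ERSE in the opposite orientation at -126 to -108: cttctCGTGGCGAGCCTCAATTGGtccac
Herpud1, chr8:94386368-94386396, + strand, ERSE-II in the gene's orientation at -52 to -42: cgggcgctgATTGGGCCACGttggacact

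ERSE was thus found for 3 of 8 members, against 35 of all 27025 genes with promoters of the same length (0.13%). ERSE-II was found for 1 of 8 against 10 of 27025 (0.037%), and the core of the UPR element for 0 of 8 against 163 of 27025 (0.603%). For Xbp1, Sdf2l1, Pdia4 and Dnajb9, no match says only that these letters were not in this window. The Hspa5 window lies inside the annotated span of the gene, which begins upstream of its RefSeq start.

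Positions of the genes are those of the GENCODE annotation of GRCm38. Hspa5 lies on chromosome 2 (34771970 to 34777547), Hyou1 on chromosome 9 (44379490 to 44392369), Pdia4 on chromosome 6 (47796141 to 47813430) and Dnajb9 on chromosome 12 (44205559 to 44210326). Sdf2l1 lies on chromosome 16 (17130138 to 17132383), Creld2 on chromosome 15 (88819646 to 88826683) and Manf on chromosome 9 (106838312 to 106891979). Herpud1 lies on chromosome 8 (94386438 to 94395377), Derl3 on chromosome 10 (75893413 to 75895941) and Xbp1 on chromosome 11 (5520659 to 5525893).

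Total counts on genes ranged from 30014757 to 79064488 per retina (median 39374202), and all 10 members passed the filter on low counts in every fit. The rarest was Derl3, with an average of 61.9 counts per retina, while Hspa5 averaged 12172 counts. Levels are given as CPM, counts scaled to the library's total after TMM normalization. Sarm1 was at 25.98 to 52.9 CPM in Sarm1 KO retinas and at 76.2 CPM or more in WT retinas. The left retinas of 2 Sarm1 KO mice (numbers 61924 and 61926, both female, both injected with IL1A+TNF) stood apart from the rest of their group, with correlations to the group mean of 0.922 and 0.909 against 0.946 to 0.980 in the other 4. The limma comparisons of Sarm1 KO retinas after IL1A+TNF are therefore given with and without them. The annotated span of Manf overlaps Dcaf1 on the opposite strand and Rbm15b on its own strand, and whether counting used strand is not given in the sources used here, so its level is less certain.

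The members spanned 2 orders of magnitude in PBS retinas of WT mice at day 2 in batch 1. Levels were scaled to the summed length of all annotated exons of a gene, which can exceed that of any single transcript. The order of the members therefore depends in part on the annotation. By this measure BiP itself stood highest: Hspa5 was at 62.9 ± 9.96 CPM per kilobase (SD, n = 31). The disulfide isomerase Pdia4 followed at 29.4, and the ERAD scaffold Herpud1 at 24.97 did not differ from the transcription factor Xbp1 at 22.4 beyond 1 SD, although Herpud1 was higher in 27 of 31 retinas. The large Hsp70-related chaperone Hyou1 at 15.5, the BiP co-chaperone Dnajb9 at 14.6 and Creld2, a cysteine-rich ER protein, at 14.0 CPM per kilobase were neighbours within 1 SD. Manf, a trophic protein that is held in the ER and can be secreted, was at 9.39 and Sdf2l1, a partner of BiP complexes, at 5.06 CPM per kilobase. Derl3, a Derlin of the ERAD machinery, was lowest at 0.6001 CPM per kilobase. Gene counts do not separate the spliced from the unspliced Xbp1 mRNA.

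Within these PBS retinas most members rose and fell with Hspa5 from eye to eye. Over the 31 retinas, each from a different mouse, 7 of 9 members correlated with Hspa5 in log2 CPM by Pearson's r and 8 of 9 by rho (prior count 2, two-sided permutation test with 100000 resamples, Benjamini-Hochberg adjusted over the 9 pairs). Only the members were tested, so the share of all genes that correlate with Hspa5 over these retinas is not known. Hyou1 had the highest Pearson r at 0.854 (Spearman's rho 0.819, adjusted permutation p = 2.25e-05 from the smallest raw p the resamples can give), and r was 0.760 without the 2 retinas farthest from the median of Hspa5. Manf (r 0.840, rho 0.735), Xbp1 (0.817, 0.715), Pdia4 (0.706, 0.711), Sdf2l1 (0.692, 0.659) and Herpud1 (0.670, 0.623) followed, and without those 2 retinas their r lay between 0.545 and 0.782. For Creld2, r was 0.598 (rho 0.559, adjusted permutation p = 0.000643) and 0.389 without those 2, and among the 16 male retinas it changed from 0.547 to -0.01, so in males it rests on 2 retinas. Among males r also fell without 2 retinas for Sdf2l1 (0.665 to 0.277), Xbp1 (0.808 to 0.492) and Manf (0.810 to 0.488). Hyou1 was then at 0.762, Pdia4 at 0.511 and Herpud1 at 0.506. By rho in males, Sdf2l1 (adjusted permutation p = 0.0691) and Creld2 (adjusted permutation p = 0.244) did not pass. Dnajb9 did not pass by r (0.294, adjusted permutation p = 0.126) but passed by rho (0.388, adjusted permutation p = 0.0354), so whether it is counted depends on the coefficient. Within the 15 female retinas it passed by both (r 0.685, adjusted permutation p = 0.00495), and within the 16 male retinas by neither. For Derl3, r was 0.10 (rho 0.105, adjusted permutation p = 0.593), and it did not pass within either sex.

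**Figure D1:**
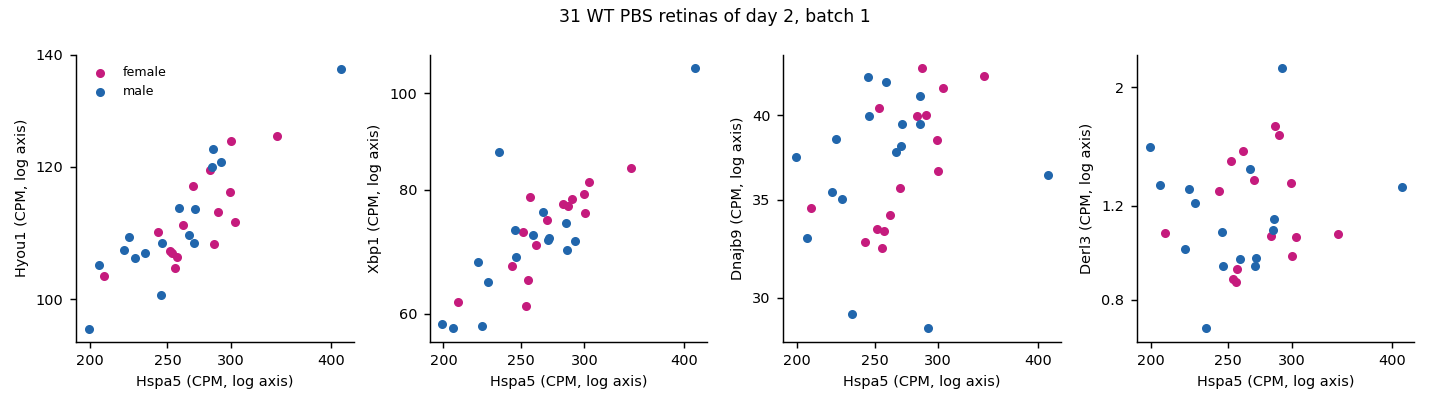
Levels of Hyou1, Xbp1, Dnajb9 and Derl3 (CPM, log axes) against Hspa5 (CPM, log axis) in the 31 PBS retinas of WT mice at day 2 in batch 1, each point a retina, coloured by sex. Hyou1 (r 0.854) and Xbp1 (r 0.817) follow Hspa5 while Dnajb9 (r 0.294, rho 0.388) and Derl3 (r 0.10) scatter more, and a male retina at 412 CPM lies far to the right.

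The first comparison asked what the combined cytokines do to these genes in WT retinas at day 2. In batch 1, 8 of 10 members were higher after IL1A+TNF than after PBS, by modest amounts, while Derl3 and Dnajb9 did not pass (limma on voom weights, sex as a term, mouse as a random block, FDR under 0.05 over all genes tested). Of all 19548 genes tested, 24.9% were higher by the same rule. The median log2 fold change over the members was 0.18, against -0.02 over all genes.

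Sdf2l1 moved most. It was between 6.13 and 13.7 CPM after IL1A+TNF (median 8.64, n = 10) and between 3.69 and 8.69 CPM after PBS (median 5.38, n = 31), so the groups overlapped although 10 of 10 treated retinas were above the PBS mean. The log2 fold change was 0.65 (SE 0.0862, FDR 5.1e-09). Hspa5 ranged from 270 to 482 CPM after IL1A+TNF (median 315) and from 199 to 412 CPM after PBS (median 261), a log2 fold change of 0.30 (SE 0.0733, FDR 0.00046) with 10 of 10 above the PBS mean. The single highest PBS retina was above all but 1 of the treated retinas.

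The other chaperone and folding genes moved less. Manf rose by a log2 fold change of 0.24 (FDR 0.000171, 39.8 against 33.1 CPM on average), Hyou1 by 0.18 (FDR 0.000102) and Creld2 by 0.17 (FDR 0.00608). Pdia4 rose by 0.10 (FDR 0.0192), which is 7 of 10 retinas above the PBS mean. Xbp1 rose by 0.19 (FDR 0.00684, 84.2 against 72.6 CPM) and Herpud1 by 0.12 (FDR 0.0187). Dnajb9 (log2 fold change 0.06, SE 0.0494, FDR 0.317) and Derl3 (-0.05, SE 0.126, FDR 0.742) did not pass. With mouse as a fixed block, which uses only mice with both injections, 5 of the 8 stayed and Xbp1, Creld2 and Herpud1 did not pass. Every member's IL1A+TNF retinas overlapped its PBS retinas.

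The cell makeup of the retinas moved in the same comparison. Of 8 monocyte and macrophage markers all 8 were higher, with summed levels of 224 to 638 CPM after IL1A+TNF and 11.3 to 126 CPM after PBS. Of 7 neutrophil markers tested 6 were higher, with sums of 191 to 1047 CPM against 18.8 to 176 CPM, and of 8 microglial markers 6 were higher and 1 lower. Of 8 markers each, 7 were lower for rods, for retinal ganglion cells and for the pigment epithelium, 4 were higher and 2 lower for Müller glia, and of 7 lens markers tested 0 passed. Of 8 B and plasma cell markers tested 1 was higher and 1 lower, and their sum was 32.2 to 43.1 CPM against 35.7 to 52.4 CPM. No listed marker was at 0 in every retina of either group. In bulk retina, a different number of cells of a type and a different amount of RNA per cell cannot be told apart, and the part of the cell makeup in the members' changes was not tested.

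In the WT retinas of batch 2 fewer members passed. Sdf2l1 was at 5.70 to 13.5 CPM after IL1A+TNF (n = 6) against 4.55 to 5.95 CPM after PBS (n = 5), with 1 treated retina inside the PBS range and a log2 fold change of 0.63. In a fit of batch 2 alone, with its Sarm1 KO retinas, 0 of 10 members passed by limma (Sdf2l1 SE 0.301, FDR 0.146) while 20.9% of 19668 genes did in either direction. At an unadjusted p under 0.05 there were 0 by limma and 1 each by edgeR and DESeq2, which also called 0 after adjustment. In a fit of the 11 WT retinas alone, chosen after seeing this, Sdf2l1 (SE 0.179, FDR 0.0176) and Manf (0.24, SE 0.0807, FDR 0.0383) were higher, 2 of 10 against 19.6% of genes. A further fit took all 81 day 2 retinas of both batches, Sarm1 KO and single cytokines included. In its comparison of WT retinas, 7 of 10 were higher after IL1A+TNF, against 27.8% of genes, and Pdia4 did not pass (FDR 0.102). What the Sarm1 KO retinas add to the spread in that fit was not tested.

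**Figure D2:**
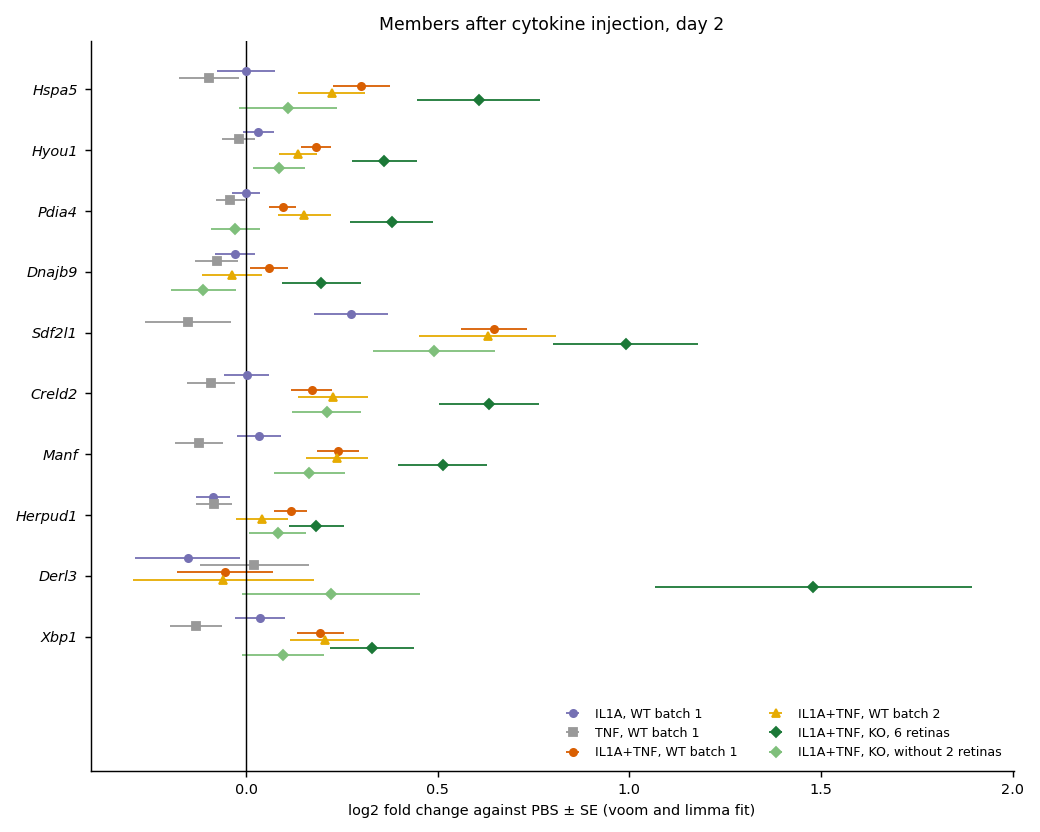
Log2 fold change against PBS of each member at day 2 (horizontal axis, bars ± SE of the voom and limma fit) for IL1A, TNF and IL1A+TNF in WT retinas of batch 1, IL1A+TNF in the WT retinas of batch 2 fitted alone, and IL1A+TNF in Sarm1 KO retinas with all 6 treated retinas or without 2. Sdf2l1 stands at 0.63 to 0.65 in both WT batches, TNF points sit at or left of 0 except for Derl3 (0.02), and the Sarm1 KO points move left when the 2 retinas are left out.

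After each single cytokine, the share of members called was close to that over all genes. After IL1A, Sdf2l1 alone passed (log2 fold change 0.27, SE 0.0976, FDR 0.0353, 8 of 9 retinas above the PBS mean), 1 of 10 members against 12% of all genes, and it lost the call in 5 of the alternatives tried and when any of 4 single IL1A retinas was left out. Its IL1A retinas lay between 4.99 and 9.002 CPM, within or just above the PBS range. Hspa5 averaged 263 CPM after IL1A and 266 CPM after PBS, with IL1A retinas from 215 to 310.2 CPM.

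TNF alone moved 0 of 10 members by limma at day 2, against 0.655% of all genes in either direction. At an unadjusted p under 0.05 there were 0 by limma, 1 by edgeR and 2 by DESeq2, and both of these tools also called 0 after adjustment. Of the members 9 had a log2 fold change below 0 and their median was -0.09. Hspa5 was at 211 to 290 CPM after TNF (n = 8) and Sdf2l1 at 4.24 to 7.61 CPM. The log2 fold change of Sdf2l1 was -0.15 (SE 0.113) and that of Manf was -0.12 (SE 0.0625). The comparisons with PBS share the 31 PBS retinas.

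Set directly against IL1A, IL1A+TNF retinas were higher for Sdf2l1 (0.37), Hspa5 (0.30), Manf (0.21), Herpud1 (0.20) and Hyou1 (0.15), 5 of 10 members against 5.39% of genes (FDR 0.0108 to 0.0475). Against TNF they were higher for 8 of 10 members against 20% of genes, with Sdf2l1 at 0.80 (FDR 1.03e-06) and Hspa5 at 0.40 (FDR 0.000656). The test of non-additivity asked whether the log2 change after both cytokines differed from the sum of the changes after each. It was above 0 for Herpud1 (0.29, SE 0.0722, FDR 0.0173), Manf (0.33, SE 0.0939, FDR 0.0366) and Sdf2l1 (0.52, SE 0.160, FDR 0.0497), 3 of 10 members against 1.78% of genes. Hspa5 fell just outside (0.40, SE 0.122, FDR 0.0505), and over the alternatives the count ran from 1 to 6. For each of the 3 called, the mean after TNF alone lay below PBS without a call, which adds to the value. Herpud1 averaged 58.3 CPM after PBS, 54.5 after IL1A, 55.0 after TNF and 63.2 after both. In the same order, Manf averaged 33.1, 33.6, 30.3 and 39.8 CPM, and Sdf2l1 5.61, 6.67, 5.02 and 9.08 CPM.

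The next comparisons concerned Sarm1, the gene of an NAD-cleaving enzyme of axon degeneration. In PBS retinas, 0 of the other 9 members differed between Sarm1 KO and WT mice by limma, none had an unadjusted p under 0.05, and edgeR and DESeq2 called 0, against 0.0397% of all genes in either direction. Hspa5 was at 216 to 325 CPM in Sarm1 KO and at 208 to 243 CPM in WT PBS retinas of batch 2, with 199 to 412 CPM in those of batch 1. The log2 difference, from a fit with both batches, was 0.17 (SE 0.148). Derl3 was at 0.660 to 1.25 CPM in Sarm1 KO and at 0.574 to 1.47 CPM in WT PBS retinas of batch 2, a full overlap, with 0.707 to 2.17 CPM in those of batch 1.

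After IL1A+TNF, Derl3 was at 1.06, 0.636, 1.203, 11.6, 18.4 and 2.17 CPM in the 6 Sarm1 KO retinas. The values of 11.6 and 18.4 belong to the left retinas of mice 61924 and 61926, and were 9.15 and 14.6 times the mean of the other 4 (1.27 ± 0.647 CPM, SD, n = 4). WT retinas given the same injection in batch 2 lay between 0.631 and 1.22 CPM. The genotype difference for which Derl3 was chosen therefore rests on 2 retinas: the fitted log2 difference between Sarm1 KO and WT after IL1A+TNF was 1.57 with all 6 and 0.31 without them. The PBS-injected right eyes of the same 2 mice had 0.941 and 1.25 CPM.

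The same 2 retinas were both above the other 4 for 9 of 10 members, the exception being Herpud1. The 9 include Derl3, which was chosen for its genotype difference. How many of all genes separate these retinas in the same way was not counted. Hspa5 was at 651 and 959 CPM in them against 244 to 287 CPM in the other 4, Sdf2l1 at 17.1 and 24.03 against 5.44 to 8.99 CPM, and Creld2 at 41.9 and 57.9 against 16.9 to 23.1 CPM. Pdia4 was at 142 and 185 CPM against 64.8 to 70.6 CPM, Hyou1 at 177 and 205 against 105 to 117 CPM, and Manf at 71.0 and 92.5 against 35.8 to 44.6 CPM. Xbp1 was at 119 and 140.02 CPM against 68.7 to 89.0 CPM and Dnajb9 at 61.6 and 82.6 against 34.2 to 41.3 CPM. Herpud1 was at 65.4 and 83.6 CPM against 55.3 to 68.9 CPM, so only the second stood above the rest. In the fellow PBS eyes Hspa5 was at 258.5 and 269.7 CPM, inside the range of the other Sarm1 KO PBS retinas.

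These 2 retinas also differed from the other 4 in some markers. The summed level of 8 retinal ganglion cell markers was 107 and 89.1 CPM in them against 295 to 686 CPM, and that of 8 neutrophil markers was 1192 and 1108 CPM against 145 to 464 CPM. In treated WT retinas of batch 2 the neutrophil sum was 276 to 1055 CPM. Monocyte and macrophage markers summed to 368 and 321 CPM against 154 to 304 CPM. Lens markers summed to 1.75 and 5560 CPM against 1.46 to 467 CPM, so only the second stood above the rest, and B and plasma cell markers to 49.1 and 49.8 CPM against 36.7 to 47.2 CPM. Rod markers summed to 28613 and 24921 CPM against 21829 to 45117 CPM. The sums were 2258 and 2910 against 2758 to 3799 CPM for Müller glia, and 99.9 and 248 against 23.7 to 163 CPM for pigment epithelium. Sarm1 was at 31.7 and 41.1 CPM, inside the range of the others. Their total counts were 52948994 and 48796849 against 50944471 to 57510927. In the comparison of all 6 with PBS retinas, 8 of 8 retinal ganglion cell, 6 of 8 rod and 4 of 8 Müller glia markers were lower, while 6 of 7 neutrophil, 5 of 8 monocyte and macrophage and 5 of 8 microglial markers were higher. The part of these differences in the members' levels was not tested.

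**Figure D3:**
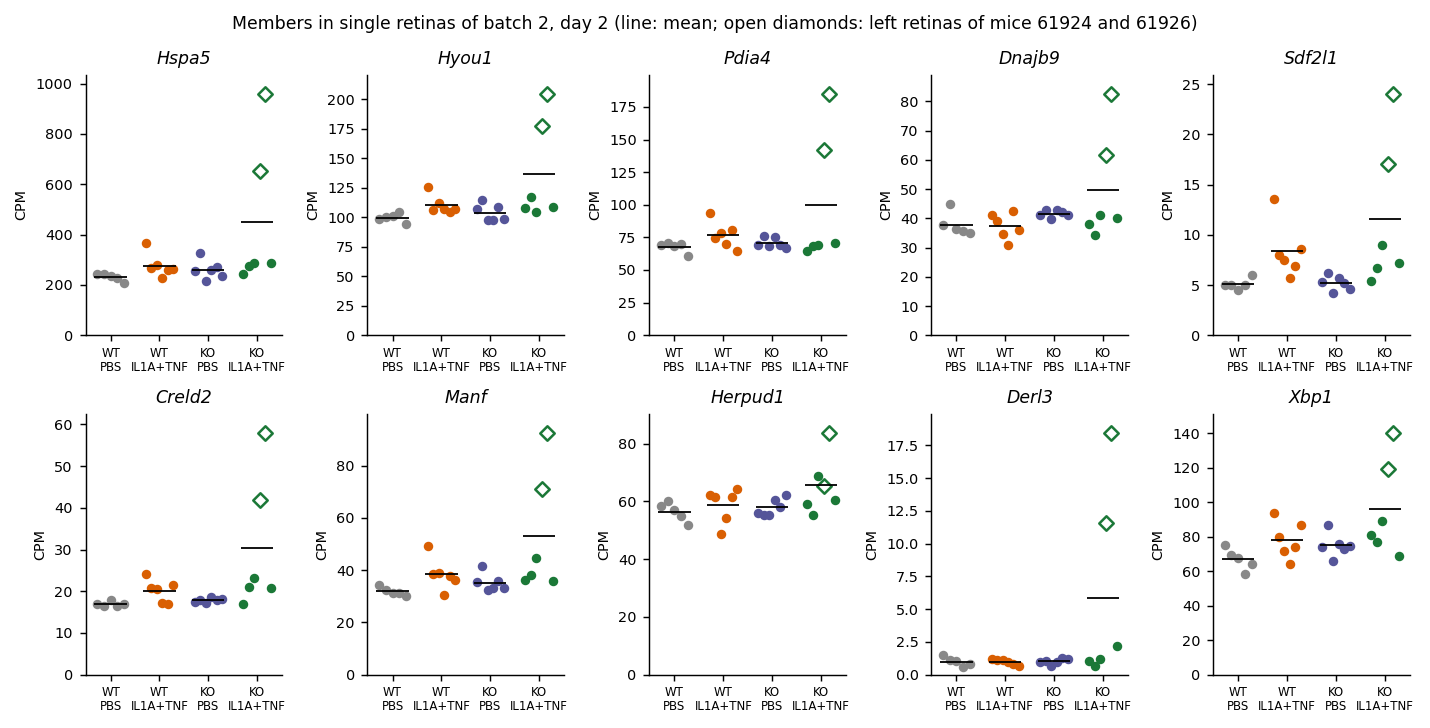
CPM of each member in every retina of batch 2 at day 2, by genotype and injection; lines are group means and open diamonds are the left retinas of mice 61924 and 61926. For Derl3 the diamonds lie at 11.6 and 18.4 CPM while the other 4 treated Sarm1 KO retinas lie at 0.636 to 2.17 CPM, and only for Herpud1 is a diamond inside the range of those 4.

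With all 6 retinas, 8 of the other 9 members were higher in IL1A+TNF than in PBS retinas of Sarm1 KO mice, against 21.3% of all genes. Sdf2l1 had the largest log2 fold change (0.99, SE 0.190, FDR 2.01e-05), followed by Creld2 (0.63), Hspa5 (0.61), Manf (0.51), Pdia4 (0.38), Hyou1 (0.36), Xbp1 (0.33) and Herpud1 (0.18), while Dnajb9 did not pass (0.20, FDR 0.116). With mouse as a fixed block 0 of the other 9 passed by limma, with 3 at an unadjusted p under 0.05, while edgeR and DESeq2 without a block called 9. Without the 2 retinas, Sdf2l1 alone was higher (0.49, SE 0.160, FDR 0.0308), 1 of 9 against 6.35% of genes. Hspa5 was then at 0.11 (SE 0.128), Creld2 at 0.21 (SE 0.0901) and Pdia4 at -0.03 (SE 0.0641).

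Between genotypes after IL1A+TNF, 6 of the other 9 members were higher in Sarm1 KO retinas, against 4.04% of genes. They were Creld2 (0.49, FDR 0.00388), Hspa5 (0.49, FDR 0.0163), Manf (0.39), Dnajb9 (0.33), Pdia4 (0.29) and Hyou1 (0.26). Without the 2 retinas 0 of 9 passed by limma and none had an unadjusted p under 0.05, against 0.918% of genes in either direction, and without either retina alone 0 passed as well. Other tools were not run on that set of retinas. With all 6 retinas, 8 of 8 retinal ganglion cell markers (median log2 difference -0.93), 6 of 8 microglial markers (-0.67) and 4 of 8 Müller glia markers were also lower in Sarm1 KO than in WT retinas after IL1A+TNF, and so was 1 each for B and plasma cells, monocytes and macrophages, and pigment epithelium. No rod, neutrophil or lens marker passed and none of the lists had one that was higher. Of all 20154 genes, 2174 were lower. Marker counts without the 2 retinas are not given here. Ganglion cell sums were 107 and 89.1 CPM in them, 295 to 686 CPM in the other 4, and 347 to 600 CPM in treated WT retinas of batch 2. Microglial sums were 128 and 140 CPM in them, 109 to 171 CPM in the other 4, and 170 to 236 CPM in those WT retinas. The part of these markers in the members' differences was not tested. The test of the genotype by treatment interaction called Creld2 alone (0.45, SE 0.152, FDR 0.0477), 1 of 9 against 1.51% of genes. Without the 2 retinas the Creld2 interaction was 0.03 (SE 0.101), 0 of 9 members and 0 genes passed, and none of the 9 had an unadjusted p under 0.05.

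The later time points asked what remained after TNF. TNF moved 0 of 10 members at day 14 and 0 of 10 at day 35 by limma, edgeR or DESeq2, with none at an unadjusted p under 0.05 by any of these, and 0 of all genes were called at either day. The TNF effect differed from that at day 2 for 0 members and 0 genes at day 14 and at day 35, again with none of the 10 at an unadjusted p under 0.05. Creld2 had the largest share of day 14 TNF retinas above the PBS mean (6 of 6), with a log2 fold change of 0.09 (SE 0.0531, FDR 0.888).

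PBS retinas themselves differed between days. Each day held its own mice, so day and the group of mice cannot be told apart. The 7 retinas of day 14 came from 6 mice, with both eyes of mouse 59710 counted in fits that had no block. Across days 2, 14 and 35, 8 of 10 members differed by an F test (limma, no block), against 36.2% of genes, and again the exceptions were Derl3 (FDR 0.802) and Dnajb9 (FDR 0.729). At day 14, Sdf2l1 (-0.58, SE 0.151, FDR 0.00446), Xbp1 (-0.36), Manf (-0.29) and Pdia4 (-0.15) were lower than at day 2, 4 of 10 against 10.5% of genes. Sdf2l1 was at 3.07 to 4.18 CPM in the 7 PBS retinas of day 14, all below the day 2 mean of 5.61 CPM. At day 35, 7 of 10 were higher than at day 2, against 15.4% of genes, with Hspa5 at 0.49 (SE 0.129, FDR 0.00259). Summed markers of these PBS retinas differed too. At days 2, 14 and 35, microglial sums were 69.5 to 124, 50.6 to 62.6 and 38.3 to 47.8 CPM. Median sums were 46.4, 15.8 and 5.57 CPM for monocytes and macrophages, and 46532, 54980 and 54513 CPM for rods. The part of the cell makeup in the members' differences between days was not tested.

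The rise at day 35 lay in male retinas. Hspa5 was at 512, 542 and 647 CPM in the 3 male PBS retinas of day 35 and at 230.3, 253 and 248 CPM in the 3 female ones. TNF retinas of that day split the same way, with 429, 369, 491, 631 and 553 CPM in 5 males and 241, 244, 261 and 239 CPM in 4 females. The lowest male was thus above the highest female in both treatments. Among male PBS retinas alone, 8 of 10 members were higher at day 35 than at day 2 (10.5% of genes), and Hspa5 rose by 1.14 (SE 0.137). Among females alone none was higher, and Sdf2l1 was lower (-0.50, SE 0.144, FDR 0.0269), 1 of 10 against 7.49% of genes lower.

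Comparisons of the sexes at days 14 and 35 were added after these values had been seen. At day 35, over PBS and TNF retinas with treatment as a term, 9 of 10 members were higher in the 8 male than in the 7 female retinas, against 7.21% of genes. Hspa5 differed by 1.06 (SE 0.0850, FDR 6.37e-08), Sdf2l1 by 1.00 (SE 0.108), Xbp1 by 0.78, Manf by 0.76, Creld2 by 0.64 and Hyou1 by 0.50. Herpud1 (0.26) and Pdia4 (0.20) differed less. Derl3 was at 0.751 to 1.43 CPM in the 7 females and at 1.21 to 2.30 CPM in the 8 males, overlapping, with a difference of 0.59 (SE 0.186, FDR 0.0370) that did not pass without any of 6 single mice. Dnajb9 had an FDR of 0.0505 (difference 0.14) and passed with edgeR and with DESeq2.

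At the earlier days fewer members passed for sex than at day 35. At day 2, over all 4 treatments, Pdia4 alone differed and was lower in males (-0.11, SE 0.0263, FDR 0.0354), 1 of 10 against 0.184% of genes, while 7 had an unadjusted p under 0.05. At day 14, 0 of 10 passed by limma and none had an unadjusted p under 0.05, against 0.0832% of genes in either direction, and no other tool was run there. The sex difference at day 35 exceeded that at day 2 for 8 of 10 members, against 2.36% of genes, led by Sdf2l1 (1.29, FDR 1.02e-06) and Hspa5 (1.26, FDR 2.18e-09), and again without Derl3 (0.46, FDR 0.365) and Dnajb9 (0.17, FDR 0.415). For Sdf2l1 and Hspa5 these values include the lower male means of day 2, so they are larger than the day 35 differences alone.

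At day 35 the males were 5 mice numbered 59730 to 59737 and the females 4 mice numbered 59892 to 59896, so sex and the group of mice cannot be told apart there. With each of the 9 mice left out in turn, 8 to 10 members were higher in males. Total counts overlapped, at 33221383 to 42486918 in males and 34375384 to 38639734 in females. Summed markers overlapped for all 9 cell type lists, for example rods at 47040.5 to 60072 CPM in males and 53076 to 61611 CPM in females, and monocytes and macrophages at 4.84 to 15.004 and 4.03 to 8.93 CPM. Of the neutrophil markers 1 was at 0 in every PBS retina and 1 in every TNF retina of that day. The same held for 1 lens marker in the PBS retinas and 1 B and plasma cell marker in the TNF retinas.

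**Figure D4:**
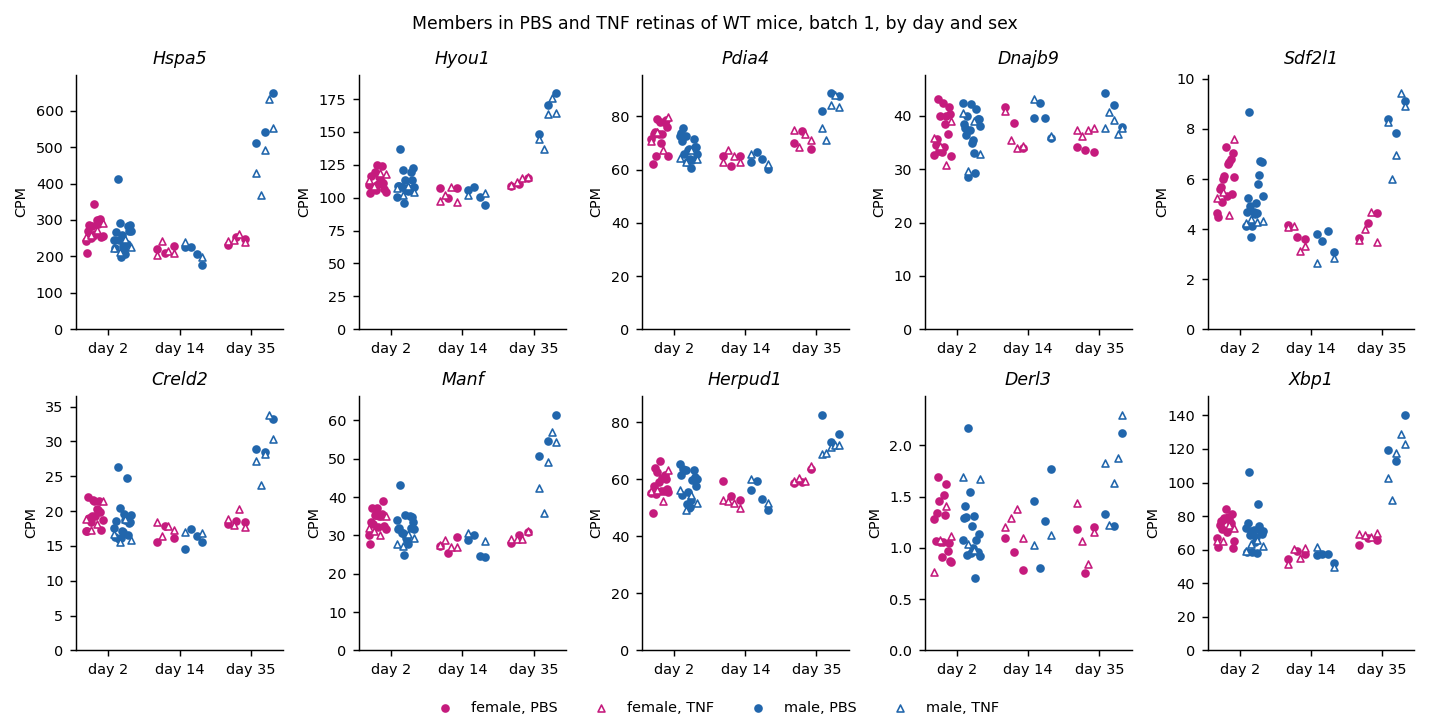
CPM of each member in PBS (filled circles) and TNF (open triangles) retinas of WT mice in batch 1 by day, coloured by sex, each point a retina. At day 35 male Hspa5 values lie at 369 to 647 CPM and female values at 230.3 to 261 CPM, while Dnajb9 shows little separation.

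Other genes of the pathway were taken as 4 lists that exclude the members. After IL1A+TNF in WT retinas of batch 1, translocon and ER-Golgi transport had 20 of 25 genes higher and 1 lower, with a median log2 fold change of 0.16. Its leading genes were Sec61a1, the channel subunit of the translocon (0.43, SE 0.0444), the signal recognition particle receptor Srpr (0.25) and Ssr4 (0.24), while Ssr1 was lower (-0.07). UPR sensors and transducers had 11 of 18 higher and 0 lower (median 0.12): Wfs1, an ER membrane protein mutated in Wolfram syndrome (0.61, SE 0.0646), the membrane-bound transcription factor Creb3l1 (0.79, SE 0.107) and Eif2ak3, the gene of PERK (0.29). The median over all genes was -0.02.

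ER-associated degradation had 10 of 22 higher and 2 lower (median 0.05), with Edem1, which takes part in the extraction of misfolded glycoproteins, at 0.54 (SE 0.0453), the ubiquitin-conjugating enzyme Ube2g2 at 0.25 and the cofactor Nploc4 at 0.17, while Erlec1 (-0.39) and Edem2 (-0.14) were lower. Other ER chaperones and folding enzymes went both ways, with 8 of 24 higher and 5 lower (median 0.02). Over all 19548 genes, 4874 (24.9%) were higher and 4978 lower. The isomerases Pdia6 (0.30) and Ppib (0.27) and the co-chaperone Dnajb11 (0.20) rose. Pdia5 (-0.77, SE 0.0663), the oxidase Ero1l (-0.51, SE 0.0514) and Txndc11 (-0.11) fell.

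After IL1A alone, 2346 of 19548 genes were higher (12%) and 1847 lower. UPR sensors and transducers had 2 higher and 1 lower, other ER chaperones and folding enzymes 2 and 2, ER-associated degradation 3 and 1, and translocon and ER-Golgi transport 6 and 0. After TNF alone, 0 genes passed in each of the 4 lists by limma. In Sarm1 KO retinas after IL1A+TNF, 4289 of 20154 genes were higher (21.3%) and 4479 lower. UPR sensors and transducers had 13 higher and 2 lower, other ER chaperones and folding enzymes 11 and 2, ER-associated degradation 12 and 1, and translocon and ER-Golgi transport 15 and 1. Without the retinas of mice 61924 and 61926 the counts of the lists were 3 and 0, 0 and 3, 2 and 1, and 0 and 0, and over all genes 1280 (6.35%) were higher and 1397 lower.

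Between males and females at day 35 the lists differed in another way. Of all 17821 genes tested, 1285 (7.21%) were higher in males and 1366 were lower. Other ER chaperones and folding enzymes had 13 of 24 higher in males and 2 lower (median 0.17). Higher were the calcium-binding chaperone Calr (0.74, SE 0.0746), Pdia6 (0.70), the ER Hsp90 gene Hsp90b1 (0.60) and the co-chaperone Dnajc3 (0.40), among others, while Dnajc10 (-0.25) and Txndc5 (-0.16) were lower. UPR sensors and transducers had 7 of 18 higher and 1 lower (median 0.08), with Ddit3 (0.36) and Atf4 (0.29), transcription factors downstream of PERK, and Creb3l2 (0.29) higher and Wfs1 (-0.22) lower. In ER-associated degradation (median -0.02), 3 were higher, Derl2 (0.22), the ubiquitin ligase Syvn1 (0.21) and its partner Sel1l (0.19), and 3 were lower, Erlec1 (-0.20), Ube2j1 (-0.13) and Ufd1 (-0.10). Translocon and ER-Golgi transport had 0 higher and 1 lower (median -0.01, Ssr4 -0.24). The median over all genes was -0.00. Genes named here were chosen after their values were seen, by the rule used for IL1A+TNF with Hsp90b1 added.

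**Figure D5:**
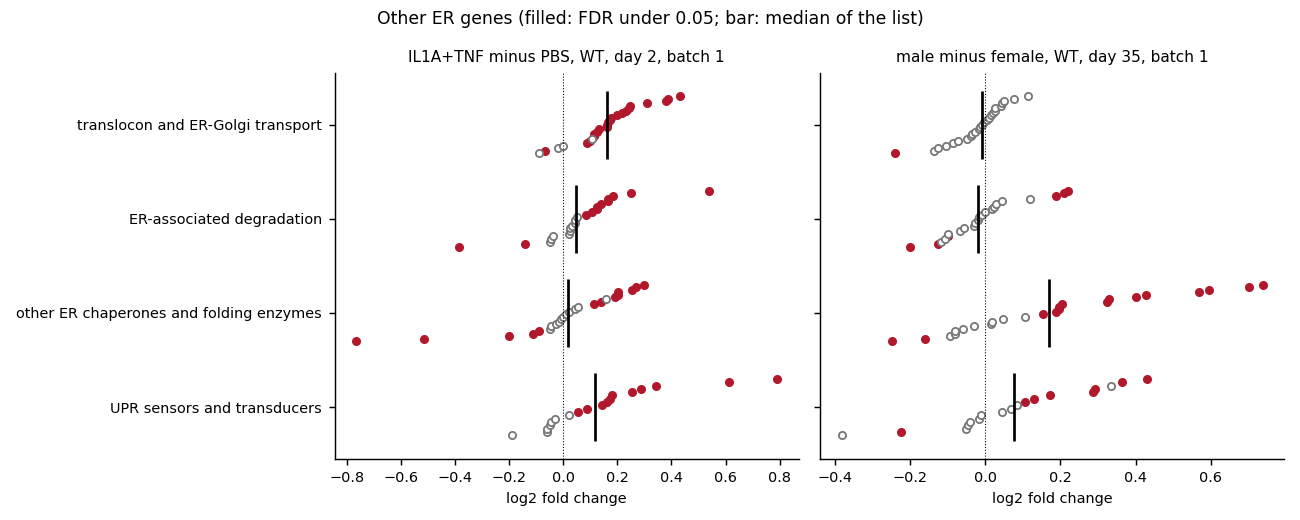
Log2 fold change of every tested gene (points) of 4 lists of ER genes after IL1A+TNF against PBS in WT retinas of batch 1 at day 2 (left) and in males against females at day 35 (right); filled points have an FDR under 0.05 and bars are list medians. The translocon list has the highest median on the left (0.16) and is at -0.01 on the right, where the chaperone list has the highest (0.17).

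Over the 12 groups of retinas, the genes whose mean log2 CPM was most like that of Derl3 were Trib3 (Pearson r 0.92), Zbtb21 (0.92), Ppp1r15a (0.88), Clp1 (0.88) and Mtm1 (0.87), among genes with an average of at least 1 CPM. For Hspa5 they were Creld2 (0.98), Nop16 (0.97), Hyou1 (0.96), Xbp1 (0.96) and Pcgf6 (0.96). These values are a description: Derl3 differs among groups mainly in the Sarm1 KO IL1A+TNF group, which holds the 2 retinas described above.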

How the data were processed

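The deposited values are raw counts per gene. Per the labels and the study's methods, the authors sequenced polyadenylated RNA from whole retinas (KAPA mRNA HyperPrep libraries, NovaSeq), aligned reads to mm10 with STAR 2.7.9a and counted them with featureCounts of Subread 2.0.1; the annotation release and the use of strand are not given in the sources used here. A deposited table of sample facts was not used, since the labels state the same. Columns of the count table were matched to retinas by mouse number and eye. The smallest chi-square between retinas of a group gave 4.13 per gene, so no library appeared to be deposited more than once within a group. Retinas of different groups were not compared in this way.

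Genes were kept with filterByExpr (minimum count 10, total 15), scaled by TMM (edgeR 4.0.16) and fitted with voom and limma 3.58.1 under R 4.3.3, with sex as a term and mouse as a random block (duplicateCorrelation, 2 rounds). The block follows the mouse numbers of the labels, which tie both eyes of an animal. The correlation within mice was 0.0515 in the day 2 fit of batch 1, 0.284 at day 14 and 0.0794 at day 35. It was 0.0884 in the joint fit of days, 0.00525 in the fit with both batches and -0.0763 in batch 2 alone. The fit of PBS retinas over days had no block, so no correlation was estimated there. Comparisons with Sarm1 KO retinas come from the fit of day 2 with both batches (81 retinas, batch as a term). P-values were adjusted by Benjamini-Hochberg over all genes of a fit, and a gene was called at an FDR under 0.05. DESeq2 1.42.0 and edgeR's quasi-likelihood test, other filters and scalings, no block, no sex term and left-out retinas were the alternatives. Levels are CPM with TMM factors over all 109 retinas; levels per kilobase use the summed exon length in the GENCODE annotation of GRCm38, and promoters are from RefSeq (GRCm38.p6). Correlations with Hspa5 over PBS retinas used numpy 2.4.6, and the other correlations used R. The fits were tested on simulated counts.

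The 10 genes, the lists of other genes and the comparisons were chosen with earlier results of these data known. Comparisons of sexes at days 14 and 35, fits of a single sex, the fit of the WT retinas of batch 2 alone and fits without mice, PBS retinas or both retinas that stood apart were added after seeing the data. All 10 genes are named. From each list, up to 3 called genes in each direction with the smallest FDR after IL1A+TNF in batch 1 and an average of at least 1 CPM are named. For Derl3 and Hspa5, the 5 genes with the most similar group means are named.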

Additional observations from a re-analysis of the deposited data

Results flagged for a closer look

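In 8 of 110 sets of a member and a group of 4 to 10 retinas, a retina stood apart by Dixon's criterion, where chance gives about 1 in 20. Mouse 61719 (WT, IL1A+TNF, batch 2) was the highest of its group for Hspa5 (366 CPM, next 277), Sdf2l1 (13.5 CPM, next 8.58) and Hyou1 (126 CPM, next 112). Hspa5 was lowest at 176 CPM in mouse 59738 (WT PBS, day 14), where the next retina was at 207 CPM. Sdf2l1 was highest at 7.61 CPM in mouse 60585 (WT TNF, day 2), Manf at 41.5 CPM in mouse 61564 (Sarm1 KO PBS) and Herpud1 at 59.99 CPM in mouse 59709 (WT TNF, day 14), and Pdia4 was lowest at 60.7 CPM in mouse 62224 (WT PBS, batch 2). The retinas of mice 61924 and 61926 were not picked out by this criterion, because they lie together at the end of the range.

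Effects that differed between groups by a test of the difference (limma, FDR under 0.05) were of 3 kinds. The change after IL1A+TNF exceeded the sum of the single changes for Sdf2l1 (0.52), Manf (0.33) and Herpud1 (0.29). Their means after TNF alone lay below PBS without a call, which adds to these values. The IL1A+TNF effect was larger in Sarm1 KO than in WT retinas for Creld2 (0.45), and was 0.03 without the retinas of mice 61924 and 61926. The male minus female difference was larger at day 35 than at day 2 for Sdf2l1 (1.29), Hspa5 (1.26), Manf (0.91), Xbp1 (0.90), Creld2 (0.77), Hyou1 (0.58), Pdia4 (0.35) and Herpud1 (0.34). At day 35, sex and the range of mouse numbers cannot be told apart.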

How the results depend on the processing

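Counts of members called are given here; of the count values recomputed, 417 stayed within 1.5 times the main count and 69 did not. The cause of these shifts was not tested. Non-additivity (3 members) gave 6 with DESeq2 and 1 with no filter on low counts. The IL1A comparison (1) gave 0 with DESeq2, with edgeR, with no filter, with no sex term and with the replicate block (mouse) as a fixed factor, and IL1A+TNF against IL1A (5) gave 3 with no filter. IL1A+TNF against PBS in batch 1 (8) gave 5 with mouse as a fixed block, where Xbp1, Creld2 and Herpud1 were lost. In WT retinas of batch 2 (0), that block gave 2 and the WT retinas alone gave 2. In Sarm1 KO retinas (8), batch 2 alone gave 4, mouse as a fixed block 0, and leaving out both retinas that stood apart 1. Sarm1 KO against WT after IL1A+TNF (6) gave 0 in batch 2 alone and 0 without both retinas, and the interaction (1) gave 0 in batch 2 alone, with no filter, with no sex term and without both. The sex difference at day 2 (1) gave 0 with no filter. PBS at day 14 (4) gave 0 in males alone, PBS at day 35 (7) gave 1 in females alone, and the F test over days (8) gave 4 in females alone. Without mouse as a replicate block, non-additivity gave 2 and the sex difference at day 35 gave 10, and other counts of members were as with it.

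Of the members called with either choice, directions turned in females alone at day 35 for Hspa5 (-0.17), Xbp1 (-0.18), Sdf2l1 (-0.50), Creld2 (-0.10), Manf (-0.20), Pdia4 (-0.048) and Hyou1 (-0.012). Without both retinas that stood apart they turned for Pdia4 in Sarm1 KO retinas (-0.028) and, between genotypes, for Pdia4 (-0.11) and Hyou1 (-0.0093). Dnajb9 in Sarm1 KO retinas, called in neither case, also turned (-0.11). With single retinas left out, counts ran from 0 to 1 for IL1A, 6 to 8 for IL1A+TNF in batch 1, 5 to 9 in Sarm1 KO retinas (5 without mouse 61924 or 61926), 0 to 8 between genotypes (0 without either), 0 to 2 for the interaction, 2 to 6 for PBS at day 14 (2 without mouse 59738 or 59830), 3 to 7 for PBS at day 35 (3 or 4 without any of the 3 males) and 8 to 10 for sex at day 35; TNF, Sarm1 KO against WT in PBS retinas and batch 2 WT stayed at 0. In Sarm1 KO retinas, UPR sensors and transducers (15 genes called) gave 9 in batch 2 alone, 3 without both and 9 to 16 with single retinas left out, other ER chaperones and folding enzymes (13) gave 8, 3 and 7 to 17, translocon and ER-Golgi transport (16) gave 9, 0 and 10 to 18, and ER-associated degradation (13) gave 3 without both; mouse as a fixed block gave 0 in each list. At its average of 61.9 counts per retina, Derl3 has the widest errors of the members.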
